A study of Homo sapiens with 4 samples.

Results

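The regions described here are the binding peaks of DDX5 and Fra-1 on human chromosomes 16, 17 and 22 in BT549 cells. BT549 is an established breast cancer cell line that the labels give as negative for oestrogen receptor alpha. The members are all peaks on these 3 chromosomes in the 4 deposited peak lists, after leaving out chromosome 17 from 18955000 to 19105000 and chromosome 22 from 46445000 to 46515000 (hg19). This left 5147 of 57601 listed peaks: 1466 of 10836 for DDX5 over input, 7 of 61 for DDX5 over IgG, 2614 of 30571 for Fra-1 over input and 1060 of 16133 for Fra-1 over IgG. The left-out interval of chromosome 17 held 7 DDX5 and 17 Fra-1 peaks over input, and that of chromosome 22 held 38 and 18.

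The study used chromatin immunoprecipitation followed by sequencing (ChIP-seq) to look for sites bound by Fra-1, by DDX5 or by both. The groups were 1 library each of ChIP with an anti-DDX5 antibody (ab21696), ChIP with an anti-Fra-1 antibody (R-20, sc-605), ChIP with normal rabbit IgG (sc-2027) and input DNA, all from untreated cells grown in serum-containing medium. No cell carried an introduced allele or knockdown, per the labels. All results thus come from a single cell line, and with 1 library per antibody no difference could be tested against replicate spread. Intervals are 95% intervals for counting error only, and neighbouring peaks are not independent, so the true uncertainty is wider.

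Fra-1, the product of FOSL1, belongs to the Fos family and forms part of the transcription factor AP-1. It pairs with a Jun protein and reads a short palindromic DNA element, mostly at enhancers, and it is known for its high level in basal-like and mesenchymal-like breast cancer cells. DDX5, also called p68, is a DEAD-box RNA helicase that unwinds RNA, takes part in splicing and microRNA processing, and serves as a coactivator for several transcription factors. Chromosomes 16, 17 and 22 are small, and 17 and 22 in particular are dense in genes and in GC-rich sequence. Peaks are named by hg19 position. Genes and sequence at the peaks were not analysed here, because no sequence or annotation of that build was used.

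DDX5 peaks were denser on these chromosomes than on the others pooled, and Fra-1 peaks much less so. The 3 chromosomes make up 7.34% of the summed length of chromosomes 1 to 22 and X, taken to the last listed peak. They held 13.7% of the DDX5 peaks over input (interval 13.0% to 14.3%), 8.61% of the Fra-1 peaks over input (8.29% to 8.93%) and 6.59% of the Fra-1 peaks over IgG (6.21% to 6.99%). In peaks per Mb, DDX5 over input had 6.59 on chromosomes 16, 17 and 22 and 3.29 on the other 20 chromosomes, a ratio of 2.001 (1.89 to 2.11). Fra-1 over input had 11.7 and 9.88 per Mb, a ratio of 1.19 (1.14 to 1.24). Fra-1 over IgG had 4.76 and 5.35 per Mb, a ratio of 0.891 (0.837 to 0.948). Among peaks of at least 8-fold over input the 3 chromosomes held 15.7% for DDX5 and 6.76% for Fra-1, so the Fra-1 share lay below the share of length there. The antibodies and controls therefore gave different orders for the same chromosomes, with DDX5 over input above the genome-wide density and Fra-1 over IgG slightly below it. Taken singly, chromosomes 16, 17 and 22 had 4.91, 9.45 and 5.02 DDX5 peaks per Mb over input. Chromosomes 19 (14.6), 20 (8.66) and 1 (5.82) were above 16 and 22, and chromosome 9 (4.95) was above 16. A high DDX5 density was thus not particular to chromosomes 16, 17 and 22.

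The balance of the lists over input was similar on the 3 chromosomes although their densities were not. There were 53.1, 57.0 and 58.9 DDX5 peaks for every 100 Fra-1 peaks on chromosomes 16, 17 and 22. On the other 20 chromosomes the value ran between 15.9 on chromosome 4 and 78.8 on chromosome 19, with a median of 30.0, so chromosomes 22, 17 and 16 were the next 3 after chromosome 19 among 23. Pooled, the values were 56.1 on chromosomes 16, 17 and 22 and 33.3 on the others, a ratio of 1.68 (1.57 to 1.801). Chromosome 17 was dense for both antibodies, with 9.45 DDX5 and 16.6 Fra-1 peaks per Mb over input. Chromosome 16 had 4.91 and 9.24 per Mb, and chromosome 22 had 5.02 and 8.51 per Mb. For Fra-1 over input, chromosomes 16 and 22 thus ranked only 11 and 13 of 23 by density, and their place in the balance came with DDX5 ranks of 7 and 5.

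**Figure D1:**
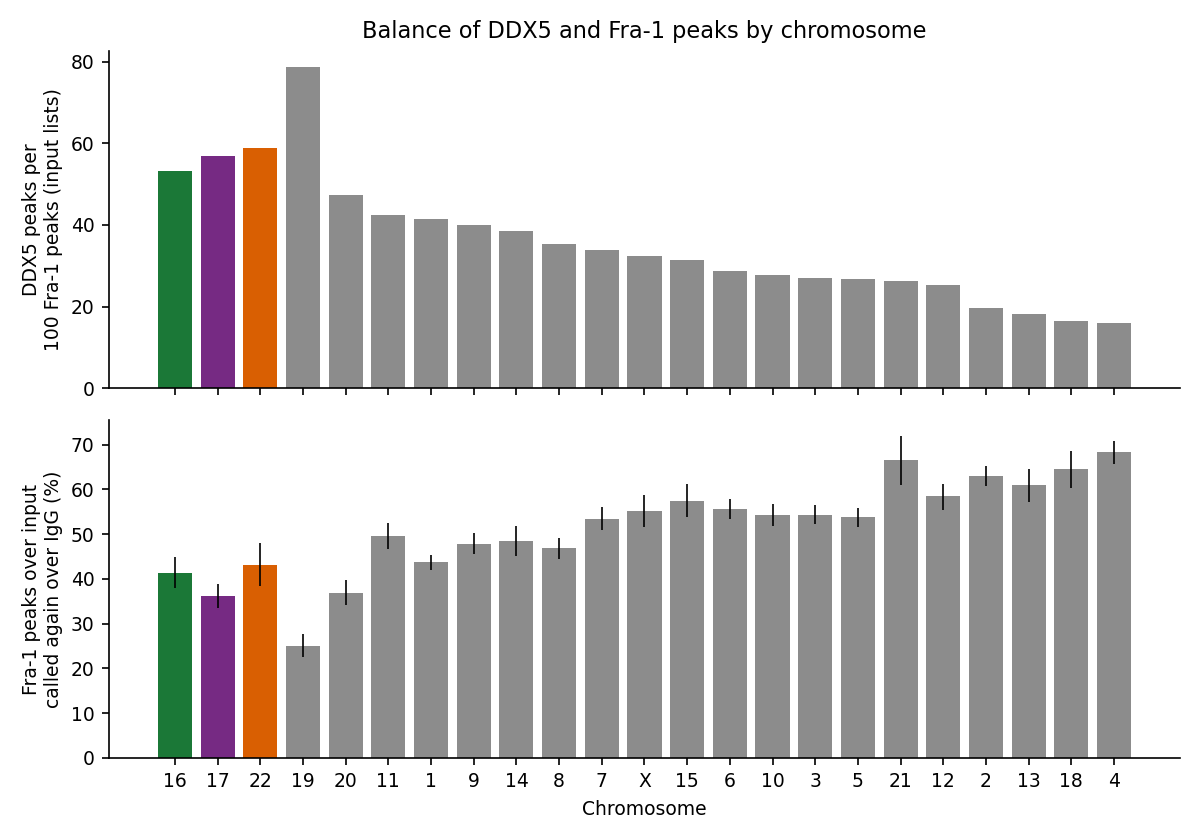
The upper bars give DDX5 peaks over input for every 100 Fra-1 peaks over input on each chromosome, and the lower bars how many percent of the Fra-1 peaks over input the IgG list also held, with lines for 95% exact binomial intervals on the lower bars only. Chromosomes 16, 17 and 22 stand on the left with 53.1 to 58.9 DDX5 peaks per 100, below chromosome 19 (78.8) and above chromosome 20 (47.5), and the others follow in falling order.

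Fra-1 peaks over input on these chromosomes were less often also called over IgG. Of the 2614 members, 1019 (39.0%, 37.1% to 40.9%) were also in the list over IgG, against 14373 of 27756 peaks on the other chromosomes (51.8%, 51.2% to 52.4%). The share over the whole list is 50.5%. The values were 41.4% on chromosome 16, 36.2% on chromosome 17 and 43.1% on chromosome 22, and chromosomes 19 (24.98%) and 20 (36.9%) were the only others below the value of chromosome 22. Counted per Mb, Fra-1 peaks called with both controls numbered 4.58 on chromosomes 16, 17 and 22 and 5.12 on the others, while those called only over input numbered 7.17 and 4.76. The higher density of Fra-1 over input was therefore in peaks absent from the list over IgG.

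Fra-1 folds over input were lower on these chromosomes, and DDX5 folds were not. The fold is the authors' enrichment of ChIP over the local control at a peak. The median Fra-1 fold over input was 4.97 (interquartile range 3.98 to 7.70) in the members and 5.46 (4.01 to 9.20) elsewhere, and 609 members (23.3%) reached 8-fold, against 29.5% of the whole list. Over IgG 364 Fra-1 members (34.3%) reached 8-fold, against 38.8% of the whole list. For DDX5 over input the median fold was 4.35 (3.81 to 5.07) in the members and 4.13 (3.61 to 4.89) elsewhere, and 38 members (2.59%, 1.84% to 3.54%) reached 8-fold, against 2.28% of the whole list. Median widths did not separate members from others: 284 and 284 bp for DDX5, and 317 and 317 bp for Fra-1 over input.

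The lower share called again over IgG was present in each class of Fra-1 fold. The Fra-1 list over input was cut into 5 classes of about equal size by fold. The share called over IgG in the lowest class was 4.26% in the members and 7.36% elsewhere. In the middle class, of 4.72-fold to 6.33-fold, it was 28.8% (25.2% to 32.6%) in the members and 44.4% (43.1% to 45.7%) elsewhere. In the highest class, above 10.46-fold, it was 98.1% and 99.2%. Weighting the other chromosomes to the members' mix of fold classes changed their share to 47.0%, which is still above the 39.0% of the members. In the class below the highest it was 74.3% and 86.6%, so the widest gaps were there and in the middle class, and the strongest Fra-1 sites were nearly all called with both controls.

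The study asked which events are common to both proteins. Of the 1466 DDX5 members over input, 820 (55.9%, 53.3% to 58.5%) overlapped a Fra-1 peak over input by at least 1 bp, against 62.8% (61.8% to 63.8%) on the other chromosomes and 61.8% in the whole list. Of the 2614 Fra-1 members over input, 819 (31.3%, 29.6% to 33.1%) overlapped a DDX5 peak, against 20.7% (20.3% to 21.2%) on the other chromosomes and 21.8% in the whole list. So a smaller share of DDX5 peaks had a Fra-1 peak, with a difference of -6.90 percentage points (-9.64 to -4.19), and a larger share of Fra-1 peaks had a DDX5 peak, with a difference of 10.6 points (8.77 to 12.4). These differences depended on the lists: with at least 8-fold in both they were -11.9 (-26.6 to 5.39) and 0.967 (0.0487 to 2.46) points, and with centres within 100 bp that for Fra-1 peaks was 5.64. In the lists over IgG, which held 7 DDX5 members, that for DDX5 peaks was 17.3 points (-6.00 to 53.3), an interval that gives no direction. The remaining 646 DDX5-only peaks were 15.8% of all DDX5-only peaks, beside 12.4% of the DDX5 peaks with Fra-1 and 13.7% of all DDX5 peaks over input. The share of Fra-1 peaks with DDX5 was 28.2%, 33.6% and 30.5% on chromosomes 16, 17 and 22, and that of DDX5 peaks with Fra-1 was 53.0%, 58.5% and 53.3%.

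Overlap of Fra-1 peaks with DDX5 was higher on these chromosomes than on the others pooled, both among peaks called over IgG and among those not called. Of the 1019 members called over IgG, 147 (14.4%, 12.3% to 16.7%) had a DDX5 peak, against 9.02% (8.56% to 9.50%) elsewhere. Of the 1595 members not called over IgG, 672 (42.1%, 39.7% to 44.6%) did, against 33.3% (32.5% to 34.1%) elsewhere. Chromosome 19 was above the members in both classes, with 25.6% and 48.8%, and chromosome 20 had 20.5% and 36.5%, so the higher overlap was not particular to chromosomes 16, 17 and 22. The Fra-1 list over IgG itself gave 138 of 1060 (13.0%) with a DDX5 peak over input, against 8.38% elsewhere and 8.68% in the whole list. Within classes of Fra-1 fold, members not called over IgG had DDX5 at 35.4%, 38.4%, 45.4%, 73.0% and 100% from the lowest to the highest class, and the other chromosomes had 26.9%, 31.7%, 38.9%, 59.4% and 95.3%. The last of these classes held only 8 members. Members called over IgG had DDX5 at 4.35%, 7.14%, 4.62%, 9.91% and 23.8%, and the other chromosomes at 2.46%, 3.20%, 3.24%, 5.40% and 16.2%. In classes 1 to 3, with 23, 70 and 173 members called over IgG, the members' intervals included the values of the others. After weighting the other chromosomes to the members' mix of fold and calling over IgG, their share was 24.6%, against 31.3% in the members.

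**Figure D2:**
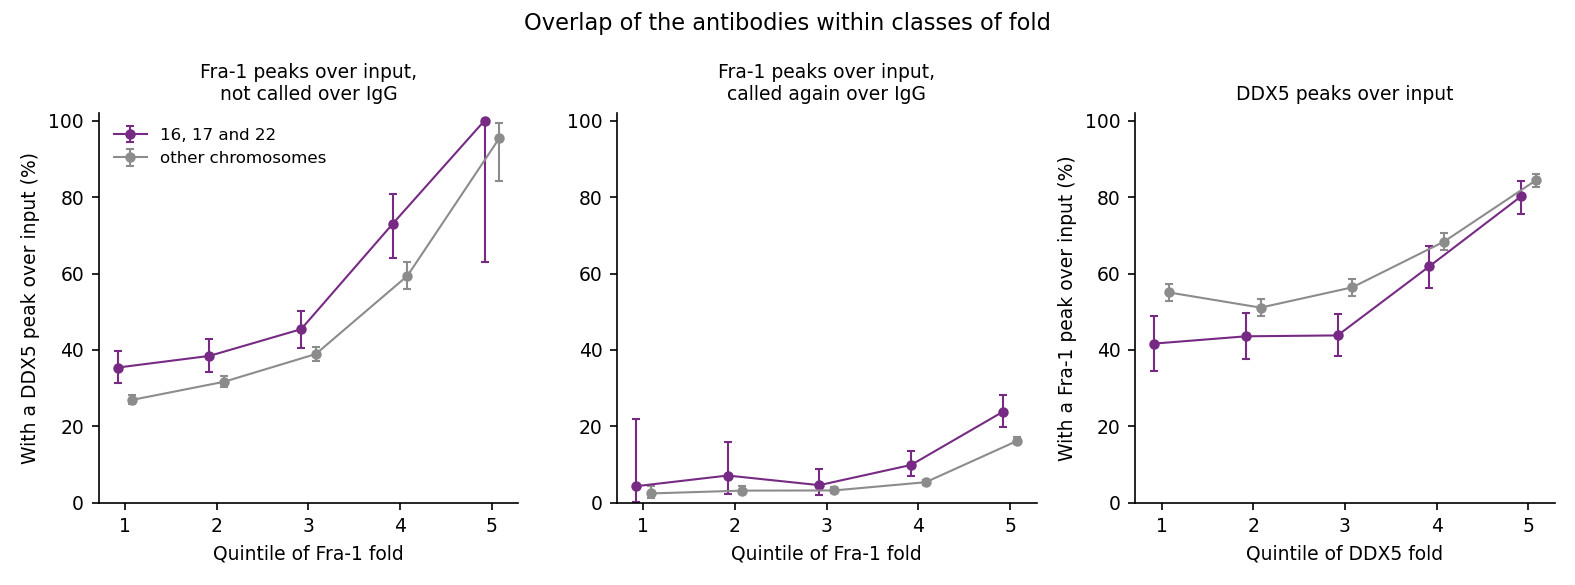
Points give the percentage of peaks that overlap a peak of the other antibody over input in 5 classes of fold, for Fra-1 peaks not called over IgG, Fra-1 peaks called over IgG and DDX5 peaks, with 95% exact binomial intervals. Chromosomes 16, 17 and 22 lie above the others in the first 2 panels (35.4% against 26.9% in the lowest class of peaks not called over IgG) and below them in the third panel (41.7% against 55.0% in the lowest class). In classes 1 to 3 of the second panel, with 23, 70 and 173 members, the members' intervals include the values of the others.

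For DDX5 peaks the members lay below the other chromosomes in each class of fold, and the gap was small in the lower classes of input level. The input level is the local control depth at a peak, computed from the authors' pileup and fold, and its median was 3.43 fragments at DDX5 members and 3.95 elsewhere. DDX5 members in the lowest fold class had a Fra-1 peak at 41.7% (34.6% to 49.0%), against 55.0% (52.7% to 57.3%) elsewhere. In the highest class the shares were 80.2% (75.6% to 84.3%) and 84.3% (82.6% to 86.0%). Counted from the lowest, the intervals overlapped in fold classes 2, 4 and 5 and not in classes 1 and 3. When DDX5 peaks were classed by input level instead, the shares were 40.6% in the members and 41.8% elsewhere in the lowest class, 56.5% and 55.1% in the next, and 67.2% and 67.6% in the third. In the upper 2 classes the shares were 66.1% and 71.3% in the members, against 71.8% and 77.6% elsewhere. The intervals of members and others overlapped in all 5 classes of input level. Weighting the other chromosomes to the members' mix of fold and input level gave 58.3%, against 55.9% in the members.

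Common peaks differed in their median Fra-1 fold according to the IgG control, with ranges that overlapped widely. Of the 820 DDX5 members with a Fra-1 peak, 165 (20.1%) met a Fra-1 peak that was also called over IgG. There the median fold over input was 4.34 for DDX5 and 14.8 for Fra-1, and DDX5 had the higher fold at 4 of 165. The Fra-1 folds of these pairs ran between 3.28 and 41.7. The other 655 met a Fra-1 peak not called over IgG. There the medians were 4.74 for DDX5 and 4.48 for Fra-1, and DDX5 had the higher fold at 382 of 655 (58.3%). The Fra-1 folds ran between 1.22 and 20.9. The other chromosomes gave the same picture, with DDX5 higher at 1.52% and 54.9% of such pairs. Calling over IgG itself rose with Fra-1 fold, from 4.26% of Fra-1 members in the lowest fold class to 98.1% in the highest. Splitting by it therefore favours these differences in Fra-1 fold and in which antibody had the higher fold. The summits of common members were separated by 74 bp in the median (interquartile range 31.8 to 174 bp), against 73 bp (29 to 167 bp) elsewhere. The DDX5-only members had their nearest Fra-1 summit over input at a median of 6.39 kb (0.994 to 23.8 kb), against 6.41 kb (0.958 to 31.9 kb) elsewhere.

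**Figure D3:**
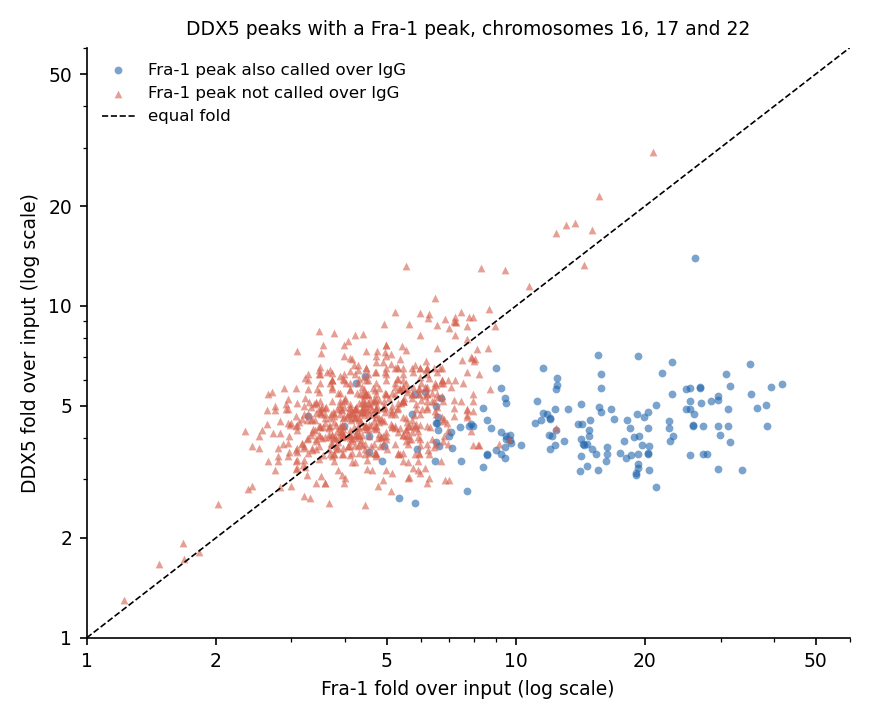
Each point is 1 of the 820 DDX5 peaks over input with a Fra-1 peak over input, placed by the authors' Fra-1 fold (x) and DDX5 fold (y) on log axes, with the dashed line marking equal fold. Peaks whose Fra-1 partner was also called over IgG (165) spread to high Fra-1 folds at a median DDX5 fold of 4.34, and the others (655) lie around the line.

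Each of the 38 DDX5 members of at least 8-fold met a Fra-1 peak over input, against 196 of 204 on the other chromosomes and 61.8% of the whole list. A Fra-1 peak over IgG was met by 1 of the 38, 3 of 38 were in the DDX5 list over IgG, and at 35 of 38 the DDX5 fold was above the Fra-1 fold. On the other chromosomes these counts were 14, 28 and 162 of 204. Choosing peaks by a high DDX5 fold favours the last of them. For the first, 9.33% of the members in the highest class of DDX5 fold met a Fra-1 peak over IgG. For the next, 0.508% of the whole DDX5 list over input was also in the list over IgG. Of the 38, 24 lay on chromosome 17, 8 on chromosome 16 and 6 on chromosome 22. These were 3.13% (2.02% to 4.63%), 1.81% (0.783% to 3.53%) and 2.33% (0.861% to 5.01%) of the DDX5 peaks over input there. The intervals overlap, so the counts do not set chromosome 17 apart. The exception with Fra-1 over IgG, picked out after its values were seen, was at chromosome 17, 57919700 to 57922038, where DDX5 had 13.99-fold and Fra-1 26.1-fold over input and Fra-1 1.93-fold over IgG. None of the 646 DDX5 members without a Fra-1 peak reached 8-fold, and the input level at the 38 was at most 5.15 fragments. Some of them lay in the same 1 Mb of chromosome 17. The stretch from 79 to 80 Mb held 4 of the 38 among its 63 DDX5 peaks over input. That from 41 to 42 Mb held 3 among its 15. Those at 79474862 to 79477584 and at 79477643 to 79479929 were next to each other.

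The leading DDX5 peaks differed between the chromosomes. Leading peaks are the 3 with the highest significance on each chromosome in each list. On chromosome 22 the DDX5 peak at 43011166 to 43011848 had a pileup of 153 fragments and 29.1-fold over input, and the Fra-1 peak there had 20.9-fold. The same site had 2.05-fold for DDX5 over IgG, where the IgG level was 74.0 fragments, against an input level of 4.29. The next on chromosome 22 was at 41842580 to 41843208, with 13.3-fold for DDX5 and 14.4-fold for Fra-1, and the third at 50963761 to 50965846, with 8.79-fold and 4.93-fold. The first of these had the highest DDX5 fold over input among the members, and no peak of the other chromosomes passed 25.8-fold, and the other 2 were in neither list over IgG.

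On chromosome 17 the leading DDX5 peaks were at 8076321 to 8077030, where DDX5 had 17.6-fold and Fra-1 13.1-fold, at 41438102 to 41438894, with 16.9-fold and 15.0-fold, and at 56708618 to 56709271, with 21.5-fold and 15.7-fold. The second of these was in the DDX5 list over IgG at 1.69-fold, with an IgG level of 57.0. On chromosome 16 they were weaker, at 30786416 to 30787357, with 9.51-fold for DDX5 and 5.97-fold for Fra-1, at 30959683 to 30960792, with 9.43-fold and 6.29-fold, and at 70285362 to 70286016, with 9.24-fold and 7.96-fold. All 9 leading DDX5 peaks thus had a Fra-1 partner over input, and none had one over IgG. All 9 were among the 38 members of at least 8-fold, each of which met a Fra-1 peak over input, so the first count adds nothing. On the other chromosomes 196 of 204 peaks of at least 8-fold met one, and in the whole list 61.8% of DDX5 peaks did. In the highest class of DDX5 fold 32 of 343 members (9.33%) had one over IgG, so none among 9 does not set these peaks apart.

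Few DDX5 peaks were called over IgG on these chromosomes. Of the 1466 DDX5 members over input, 6 (0.409%) were in that list, against 0.508% of the whole list over input. The members' share of the list over IgG, 7 of 60 on chromosomes 1 to 22 and X, was 11.7% (4.82% to 22.6%), so a list this short cannot place the chromosomes above or below their 7.34% of length. On chromosome 16 the one member was at 4743178 to 4743407, with 3.24-fold over IgG and an IgG level of 7.0. On chromosome 17 the highest, at 7653619 to 7653876, had 5.12-fold over an IgG level of 2.90 and was the member absent from the list over input. Those at 36666680 to 36666979, at 80188747 to 80188953 and at 38136963 to 38137207 had 3.51, 3.47 and 3.44 for the fold, over IgG levels of 13.2, 8.20 and 8.0. That at 41438304 to 41438509 had 1.69-fold over 57.0. The last, at 43011290 to 43011629 on chromosome 22, is the site with an IgG level of 74.0 described above. A Fra-1 peak over input lay at all 7, one over IgG at 2 of them, and 6 were in the DDX5 list over input. None reached 8-fold, against 4.92% of that list.

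All 9 leading Fra-1 peaks over input were also called over IgG, against 50.5% of the whole list. In the highest class of Fra-1 fold 98.1% of the members were, so choosing leading peaks favours this count. On chromosome 16 the first, at 48157015 to 48157810, had a pileup of 224 and 33.0-fold over input and 24.9-fold over IgG, and no DDX5 peak. The next, at 4994594 to 4995239, had 41.3-fold over input and 14.8-fold over IgG, also with no DDX5 peak. On chromosome 17 the first was at 15823980 to 15824626, with 3.902-fold for DDX5 and 31.5-fold for Fra-1 over input, and the second at 25711116 to 25712262, with 4.91-fold and 36.4-fold. On chromosome 22 the first was at 36025467 to 36026350, with 4.35-fold for DDX5 and 38.6-fold for Fra-1, and Fra-1 had 20.8-fold over IgG. Of the 9 leading Fra-1 peaks over input, 7 overlapped a DDX5 peak over input, and of the 9 leading over IgG 2 did, beside 21.8% and 8.68% of the whole lists. These groups of 9 share 4 sites, so their counts are not separate observations. In the highest class of Fra-1 fold over input, 25.2% of the members overlapped a DDX5 peak. The leading peaks over input were also wide, at 491 to 1147 bp against a median of 317 bp in the members. A wide peak meets the 1 bp rule more easily, and the part of width in the 7 of 9 was not tested. The strongest Fra-1 member over IgG was at 69408974 to 69409338 on chromosome 17, with 42.7-fold over an IgG level of 2.67. The highest Fra-1 fold over IgG on any other chromosome was 39.1.

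The sites that ranked best for both antibodies, 2 on each chromosome, were mostly Fra-1 sites with moderate DDX5. At 88278706 to 88279513 on chromosome 16 the folds over input were 5.36 for DDX5 and 29.6 for Fra-1, with summits 74 bp apart. At 33390364 to 33391345 on chromosome 17 they were 6.24 and 30.8, with summits 17 bp apart. Both were called for Fra-1 over IgG, at 14.2-fold and 10.6-fold. The site at 43011160 to 43011818 on chromosome 22 was the exception among the 6, with 29.1 for DDX5 and 20.9 for Fra-1, summits 1 bp apart and no Fra-1 peak over IgG. At the other site on chromosome 22, 30818757 to 30820438, the summits lay 854 bp apart, so the 6.77-fold of DDX5 and the 23.2-fold of Fra-1 belong to different positions of 1 broad region.

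In bins of 1 Mb, DDX5 peaks were unevenly spread. The 3 chromosomes had 182 bins with at least 1 peak of any list, with a median of 5 DDX5 peaks over input (interquartile range 1.25 to 10), 12 Fra-1 peaks over input (6 to 20) and 5 Fra-1 peaks over IgG (2 to 8). The 2429 bins of the other chromosomes had medians of 2, 9 and 5. At least 20 DDX5 peaks were found in 23 member bins (12.6%), against 3.62% of the other bins, and no DDX5 peak in 21 (11.5%), against 28.7%. The tenth of member bins richest in DDX5 held 37.6% of the DDX5 members, against 51.1% on the other chromosomes. Taken singly, chromosomes 16, 17 and 22 gave 42.0%, 37.7% and 28.0%. The other bins are pooled over chromosomes with 1.04 to 14.6 DDX5 peaks per Mb, so their 51.1% also holds differences between chromosomes. The pooled values therefore do not tell whether DDX5 was spread more evenly within the member chromosomes.

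With the left-out intervals not counted, the 5 bins richest in DDX5 lay on chromosomes 17 and 16. The bin from 46 to 47 Mb on chromosome 22 kept 7 DDX5 peaks over input. With the 38 of its left-out interval it would have been among these 5. The bin from 79 to 80 Mb on chromosome 17 held 63 DDX5 and 42 Fra-1 peaks over input, and 7 Fra-1 peaks over IgG. That from 7 to 8 Mb held 54 and 64 over input, with 11 over IgG, and that from 1 to 2 Mb held 40 and 46, with 15 over IgG. On chromosome 16, the bin from 30 to 31 Mb held 35 and 40 over input, with 5 over IgG, and that from 2 to 3 Mb held 34 and 19, with 1 over IgG. DDX5 outnumbered Fra-1 over input in 13 of 182 member bins (7.14%), against 3.66% of the other bins. These 13 included the first 3 Mb of chromosome 16, both bins between 79 and 81 Mb on chromosome 17 and the bin from 50 to 51 Mb on chromosome 22.

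Other bins were rich in Fra-1 over IgG and nearly empty of DDX5. The bin from 27 to 28 Mb on chromosome 22 had 2 DDX5 peaks, 23 Fra-1 peaks over input and 22 Fra-1 peaks over IgG, the most over IgG of any member bin, and its median Fra-1 fold over input was 9.45. On chromosome 16 the bin from 64 to 65 Mb had no DDX5 peak, 18 Fra-1 peaks over input and 15 over IgG. On chromosome 17 the bins from 64 to 65 and from 69 to 70 Mb each had 1 DDX5 peak, with 16 and 13 Fra-1 peaks over IgG. The opposite pattern was seen from 8 to 9 Mb on chromosome 17, with 27 DDX5 and 33 Fra-1 peaks over input and none for Fra-1 over IgG. Bins with at least 10 Fra-1 peaks over IgG and at most 1 DDX5 peak were 4 of 182 in the members (2.20%), against 5.805% on the other chromosomes.

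Across the 182 member bins, the number of DDX5 peaks went with the number of Fra-1 peaks not called over IgG (Spearman's rho 0.900) more closely than with the number of Fra-1 peaks over IgG (rho 0.410). On chromosomes 16, 17 and 22 taken singly the values were 0.866, 0.920 and 0.904 against 0.332, 0.424 and 0.522, and on the 2429 other bins 0.794 against 0.345. These are descriptions across bins of the same 4 libraries, and the DDX5 and Fra-1 counts over input share the input library.

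**Figure D4:**
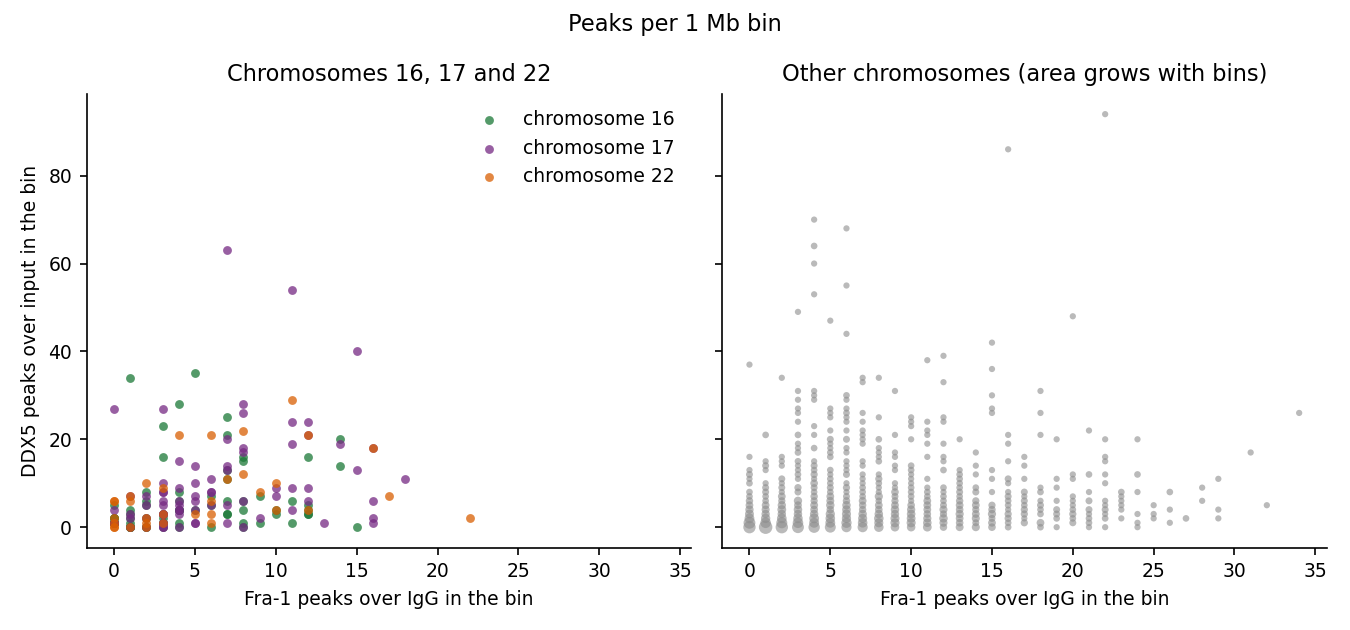
Each point is a 1 Mb bin (on the right, the marker grows with the number of bins at that place), with Fra-1 peaks over IgG on the x axis and DDX5 peaks over input on the y axis. On chromosomes 16, 17 and 22 (left) the bin with the most DDX5 peaks had 63 with 7 Fra-1 peaks over IgG, and the bin with the most Fra-1 peaks over IgG had 22 with 2 DDX5 peaks.

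The ends of the long arms were rich in DDX5, as on many chromosomes. In the last 3 Mb before the last listed peak there were 83.1, 119.5 and 115 DDX5 peaks per 100 Fra-1 peaks over input on chromosomes 16, 17 and 22, against 50.8, 52.9 and 56.3 on the rest of each. These stretches held 11.6% of the DDX5 and 6.16% of the Fra-1 members over input. On the other 20 chromosomes the terminal value ran between 0 and 133 with a median of 76.9, and it was above 100 on 6 of them. Without these ends, the balance was 52.8 on chromosomes 16, 17 and 22 and 31.5 on the others.

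Close peaks were grouped by joining those at most 12.5 kb apart. The left-out interval of chromosome 22, with 38 DDX5 peaks over input, took no part in this. Groups of 5 or more peaks held 333 of the 1466 DDX5 members (22.7%) and 474 of the 2614 Fra-1 members over input (18.1%), against 18.9% and 14.5% on the other chromosomes. By chromosome the DDX5 shares were 13.1%, 26.6% and 27.6% on 16, 17 and 22, and the Fra-1 shares 12.8%, 23.4% and 11.9%, so chromosome 16 lay below the other chromosomes for both antibodies and chromosome 22 for Fra-1. For Fra-1 over IgG they held 6.89% of the members and 6.78% elsewhere. The fullest DDX5 groups had 14 peaks each, at 7117581 to 7156077, 7737973 to 7761659 and 79360945 to 79377770 on chromosome 17, and 10, 11 and 5 of the 14 peaks overlapped Fra-1 over input. The first of these covers the second fullest Fra-1 group over input, of 15 peaks at 7123039 to 7156010. The fullest Fra-1 group over IgG, 10 peaks at 27503837 to 27536451 on chromosome 22, had 2 peaks with DDX5.

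Chromosome 17 showed a step in the input level near 40 Mb, a position chosen after the data were seen. At Fra-1 peaks over input the median input level was 4.84 fragments before 40 Mb and 3.69 beyond, and at DDX5 peaks it was 4.29 and 2.75. The IgG level at Fra-1 peaks over IgG was 7.0 before and 4.60 beyond, and 7.0 (interquartile range 4.75 to 8.60) from 35 to 40 Mb and 5.6 (4.0 to 7.0) from 40 to 45 Mb. Its bin medians did not place a step at 40 Mb, with 4.2 from 39 to 40 Mb and 6.0 from 40 to 41 Mb. In bins with at least 10 Fra-1 peaks over input, the median input level ran between 4.18 and 6.59 in the 28 bins before 40 Mb and between 3.10 and 4.74 in the 25 bins beyond, so the ranges overlapped between 4.18 and 4.74. The level cannot fall below the caller's genome-wide background, 2.68 for DDX5 and 3.02 for Fra-1, which hides part of any step. Chromosomes 16 and 22 had medians of 3.87 and 3.68 at Fra-1 peaks, and the other chromosomes 4.65.

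The peaks also differed between the sides of 40 Mb, a contrast that another cut of the chromosome gave too. Before 40 Mb there were 62.3 DDX5 peaks per 100 Fra-1 peaks over input, and beyond 50.3. DDX5 peaks with a Fra-1 peak were 62.8% (58.2% to 67.2%) and 51.8% (46.0% to 57.6%), Fra-1 peaks with a DDX5 peak 39.0% (35.5% to 42.6%) and 26.8% (23.2% to 30.5%), and Fra-1 peaks called again over IgG 31.5% (28.2% to 34.97%) and 42.0% (38.0% to 46.0%). The median Fra-1 fold over input was 4.52 before and 5.34 beyond. In the 5 Mb on each side, from 35 to 40 and from 40 to 45 Mb, the input level at Fra-1 peaks was 4.84 and 3.29. The balance there was 58.5 and 59.8 DDX5 peaks per 100 Fra-1 peaks over input. Fra-1 peaks with DDX5 were 31.9% (24.1% to 40.4%) and 33.6% (24.8% to 43.4%). Fra-1 peaks called again over IgG were 39.3% (31.0% to 48.0%) and 27.1% (18.96% to 36.6%) there, the opposite order to that of the whole sides. With 135 and 107 Fra-1 peaks over input in these stretches, the intervals are too wide to tell whether the overlap with DDX5 differed there. The part of the input level in the overlap was not tested. Cut instead at its longest stretch without a peak, 22259996 to 25265024, chromosome 17 had 65.1 and 53.1 DDX5 peaks per 100 Fra-1 peaks. Fra-1 peaks with DDX5 were then 41.1% and 29.9%, and those called again over IgG 28.5% and 39.8%. The differences between whole sides were thus not particular to a cut at 40 Mb.

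**Figure D5:**
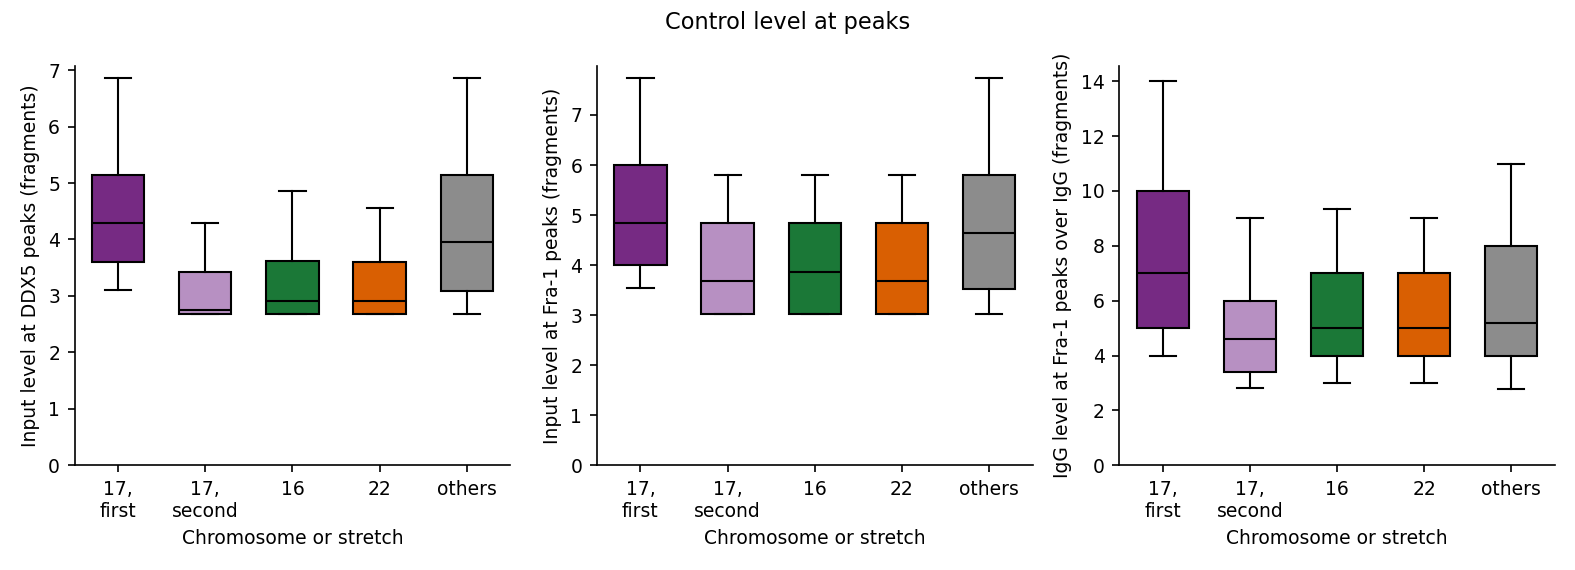
Boxes give the median and quartiles, and whiskers the 10th and 90th percentiles, of the control level at peaks on chromosome 17 before (first) and beyond (second) 40 Mb, on chromosomes 16 and 22 and on the other chromosomes. The first stretch of chromosome 17 has a median input level of 4.29 at DDX5 peaks, against 2.75 in the second stretch, 2.92 on chromosomes 16 and 22 and 3.95 on the others.

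Chromosome 16 differed on the sides of its longest stretch without a peak, the 11.4 Mb from 34979867 to 46389008. Before it there were 61.0 DDX5 peaks per 100 Fra-1 peaks over input, and after it 44.5. Fra-1 peaks called again over IgG were 34.9% (30.4% to 39.5%) before and 48.5% (43.5% to 53.5%) after, at input levels of 3.87 and 3.68. A few members lay where the input itself was very deep. On these 3 chromosomes 12 DDX5 peaks and 10 Fra-1 peaks over input had an input level of at least 20 fragments, reaching 295 and 278, and their folds were 1.23 to 2.54 for DDX5 and 1.22 to 2.08 for Fra-1. They lay between 33239728 and 33866725 and between 46389009 and 46413073 on chromosome 16, and between 21902879 and 25265410 and between 41381840 and 41466474 on chromosome 17. Such peaks were 0.819% of the DDX5 and 0.383% of the Fra-1 members, against 0.703% and 0.328% elsewhere.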

How the data were processed

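DDX5 ChIP, Fra-1 ChIP, IgG ChIP and input DNA from BT549 cells were 1 library each, and the peak lists compare each ChIP with IgG and with input. The deposited pileup is a coverage signal, the ChIP fragments at the summit, which the authors left as whole numbers over input and, from the values, scaled to the control over IgG. A ratio of ChIP to local control, named fold enrichment per the file headers, was also deposited by the authors. The deposited −log10 p and −log10 q columns were told apart by their values, because their header cells are damaged. CASAVA 1.8, Bowtie 0.12.9, HOMER and hg19 are named in the submitters' processing notes, without roles, and the peak caller is not given in the sources used here. Absolute library depths are unknown. Over IgG the pileup moved in steps of 0.9975 for DDX5 and 0.8845 for Fra-1. Read as the scaling to the control, these steps put the IgG library close to the DDX5 library in depth.

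The control level was computed as (pileup + 1) / fold − 1, and it cannot fall below the caller's background. Peaks were matched by at least 1 bp of overlap and placed in 1 Mb bins by their centre. Chromosome length was taken to the last listed peak, and the other chromosomes are 1 to 22 and X without 16, 17 and 22. Shares have exact Clopper-Pearson intervals of 95%, differences of shares Newcombe intervals, and ratios of counts log-scale Poisson intervals. Fold classes were 5 about equal parts of a whole list. Level classes were cut in the same way at rounded levels, and tied levels made them unequal in size. Named peaks were, by −log10 q with ties by pileup, the 3 highest per chromosome and list, all DDX5 peaks over IgG, and the 2 common sites with the lowest summed ranks. Named bins were the 5 with the most DDX5 peaks over input, the most Fra-1 peaks over IgG or the highest input level. Scripts used scipy 1.17.1, pandas 2.3.3 and numpy 2.4.6 under Python 3.11.15, with figures by matplotlib 3.10.9, and the matching was tested on simulated data. The chromosomes, lists and settings were chosen with earlier results of these data known. Sequence at named peaks, planned in case a genome of the files' build was at hand, was not analysed here.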

Additional observations from a re-analysis of the deposited data

How the results depend on the processing

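No paired analysis was possible because each antibody has 1 library. Of 75 alternative values, 35 moved by less than their counting interval or count range, 39 moved further and 1 reversed; the cause was not tested. Among peaks of at least 8-fold, the members' share of the lists was 15.7% for DDX5 and 6.76% for Fra-1 over input, 0% for DDX5 and 5.83% for Fra-1 over IgG. There the members-minus-others difference was -11.9 points for DDX5 peaks with Fra-1, 0.967 for Fra-1 peaks with DDX5 and -8.23 for Fra-1 called again over IgG, and the ratio of balances was 2.57. With −log10 q at or above each list's median, the Fra-1 shares were 7.06% over input and 6.08% over IgG, the differences 7.94 for Fra-1 with DDX5 and -8.16 for Fra-1 called again, the ratio 2.01, and DDX5 outnumbered Fra-1 in 37 bins. Leaving out a member chromosome lowers the shares by construction. Without chromosome 16 they were 9.96% for DDX5 and 6.03% for Fra-1 over input and 4.44% for Fra-1 over IgG. Without chromosome 17 they were 7.03%, 4.38% and 3.58%, with 3.64% for DDX5 over IgG, and the differences were -9.69 for DDX5 with Fra-1, 8.23 for Fra-1 with DDX5 and -9.81 for Fra-1 called again. Without chromosome 22 they were 11.6%, 7.28% and 5.45%. Without chromosome 19 among the others they were 14.9% for DDX5 and 8.93% for Fra-1 over input. With centres within 100 bp, the difference for Fra-1 with DDX5 was 5.64. In the lists over IgG, with 7 DDX5 members, the difference for DDX5 with Fra-1 reversed to 17.3 (-6.00 to 53.3), that for Fra-1 with DDX5 was 0.149 and the ratio 1.87. Weighting the others to the members' mix, chosen after seeing the data, gave -2.40, 6.72 and -8.00. With occupied bins as length, the density ratios were 2.11 for DDX5 and 1.26 for Fra-1 over input. DDX5 outnumbered Fra-1 in 35 bins of 0.5 Mb and 6 bins of 2 Mb. Leaving out the last 3 Mb, also chosen after seeing the data, kept the balance within its interval. The short list and the unknown absolute depths limit what can be said of DDX5 over IgG.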
